A study of Homo sapiens with 4 samples.

Results

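The transcripts described here are those of 9 genes of mitochondrial cell death, 8 from the BCL2 family and 1 caspase, chosen by symbol from the 19826 gene rows of the deposited table. They are the anti-apoptotic BCL2, BCL2L1 and MCL1, the effectors BAX and BAK1, the BH3-only genes BBC3, PMAIP1 and BCL2L11, and the initiator caspase CASP9, and all 9 were in the table. A further 49 cell death genes, among them other caspases, were followed as 10 lists from general knowledge. RNA came from BE(2)C, a human neuroblastoma line with amplified MYCN, here carrying in every library an introduced MYCN open reading frame. Cells received an siRNA and a miRNA mimic together and were harvested after 48 hours, and polyA RNA was sequenced. The 4 groups were siMYCN with the let-7a mimic, siMYCN with the control mimic miRCon, the control siRNA siCon with let-7a, and siCon with miRCon, with 1 library in each. The line is a culture model. Which MYCN transcripts the siRNA meets, the cells' own, those of the introduced frame or both, was not examined. Gene-level values do not separate these sources.

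The mitochondrial pathway of apoptosis is run by the BCL2 family. Anti-apoptotic members hold the effectors BAX and BAK1 inactive, BH3-only members relieve that hold or activate the effectors, and active effectors open the outer mitochondrial membrane so that cytochrome c escapes and CASP9 is activated on the APAF1 apoptosome. MYC proteins are known to sensitise cells to this pathway, and neuroblastomas with amplified MYCN have been studied for their dependence on BCL2 and MCL1. let-7 is a miRNA family that lowers target transcripts through seed matches in 3' UTRs, and BCL2L1 has been reported as a let-7 target in other cells.

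Values are called TPM-like because they sum to nearly the same total in every library and because Salmon, which reports TPM, is among the tools in the submitters' processing notes. The sums show scaling per library only. Scaling per transcript length was not tested, and every order, sum or ratio of levels between genes given here assumes it. Fold changes were taken after adding 1 to each value, as log2(value + 1), and so shrink for low genes. Each siRNA comparison could be made once under let-7a and once under miRCon, and each mimic comparison once in siMYCN and once in siCon cells. The test was an additive limma fit over all 9324 genes with a mean of at least 5. It has 1 residual degree of freedom, so its errors are departures from additivity shared across genes, not the spread of replicate cultures. Of the 9 genes, 6 passed this level filter, while BBC3, BCL2L11 and CASP9 lay under it and were not tested.

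Between 14790 and 15294 genes had a value above 0, and transcripts of the mitochondrial genome made up 29.3% and 28.4% of the siMYCN libraries, against 32.1% and 31.6% of the siCon libraries. MYCN itself had siMYCN log2 fold changes of -0.26 with let-7a and -0.23 with miRCon and was not called (limma adjusted p = 0.0584). LIN28B, an established let-7 target, had let-7a log2 fold changes of -1.08 in siMYCN and -0.70 in siCon cells. It was not called for let-7a either (limma adjusted p = 0.663). All 10 neuroblast markers had a mean of at least 5, and their summed level was 5507 in siMYCN with let-7a, 2991 in siMYCN with miRCon, 3492 in siCon with let-7a and 3058 in siCon with miRCon. Blood markers summed to 0.38 or less in each library and HBB was listed at 0, the 4 epithelial markers summed to between 7.27 and 10.8 with CDH1 listed at 0, and 4 of 5 fibroblast markers had a mean of at least 5, with sums from 226 to 270.1. These sums are per library and have no test. In bulk RNA, fewer cells of a type and less RNA per cell cannot be told apart.

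MCL1 was the most abundant of the 9 transcripts and the only one called. It rose with siMYCN under both mimics, while BCL2 and BCL2L1 showed no call. Of the 6 tested genes, 1 was called with siMYCN by limma at a Benjamini-Hochberg adjusted p under 0.05, where 3.43% of all 9324 tested genes were called in either direction, 2.07% higher (193 genes) and 1.36% lower (127 genes). After median-ratio rescaling the calls over all genes were 343 higher and 408 lower. With so few genes tested, that count carries little weight beside the background, and the result is that of MCL1 itself. The 6 tested genes had a median siMYCN effect of 0.075, beside 0.056 over all tested genes, of which 58.3% lay above 0.

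**Figure D1:**
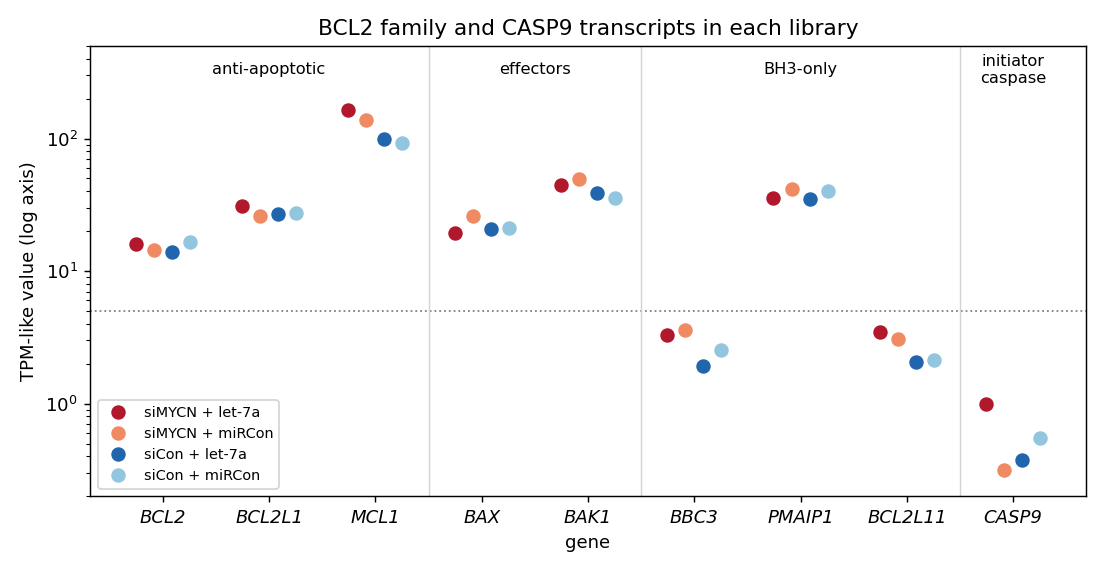
TPM-like value (log axis) of each gene in the 4 libraries, 1 point per library with no replicate, grouped by role; the dotted line marks the level of 5, the filter being on the mean of the 4 libraries. Both siMYCN points of MCL1 (163 and 137) lie above both siCon points (99.3 and 93.2), while those of BCL2 and BCL2L1 are interleaved.

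MCL1, a short-lived anti-apoptotic protein that many cells need to survive, lies on the minus strand of chromosome 1 (chr1:150574551-150579738, GRCh38). It had 163 TPM-like in siMYCN with let-7a and 137 in siMYCN with miRCon, against 99.3 in siCon with let-7a and 93.2 in siCon with miRCon. Both siMYCN libraries lay above both siCon libraries, and within each siRNA the let-7a library was the higher one. How many of all genes have siRNA groups without overlap was not counted, here and for the genes below. By a looser rule, 4031 of the 9324 tested genes were above 0 in both siMYCN pairs. The siMYCN log2 fold change was 0.71 with let-7a and 0.56 with miRCon, or 0.63 ± 0.081 over both pairs (SE of the additive fit, n = 4 libraries; adjusted p = 0.0344 by limma). On the value scale the siMYCN library was 64.0% higher with let-7a and 47.6% higher with miRCon. Of the 9324 tested genes, 397 had a larger siMYCN effect than MCL1, which ranked 398. After rescaling the libraries by median ratios the effect was 0.57 (adjusted p = 0.0172 by limma). The call was lost with no level filter (adjusted p = 0.193) and without limma's mean-variance trend (adjusted p = 0.132), settings under which limma called 0 of all genes, with 1761 higher and 1032 lower, and 1434 higher and 787 lower, at an unadjusted p under 0.05. The mitochondrial share and the neuroblast marker sum given above also differed between these libraries, and their part in the MCL1 difference was not tested. MCL1 exons overlap those of ADAMTSL4-AS1 on the same strand, and the long and short MCL1 isoforms, which are known to act in opposite ways, were not separated.

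BCL2, the founding member, which protects many neuroblastomas, is on the minus strand of chr18:63123346-63320128. It had 16.0 in siMYCN with let-7a and 14.5 in siMYCN with miRCon, against 14.0 in siCon with let-7a and 16.6 in siCon with miRCon. The siRNA groups overlapped, with the siMYCN pair inside the range of the siCon pair. Its siMYCN effect was -0.0029 ± 0.16 (SE, n = 4 libraries; adjusted p = 0.992 by limma), with 0.18 in the let-7a pair and -0.19 in the miRCon pair.

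BCL2L1, which encodes the anti-apoptotic BCL-XL, lies on the minus strand of chr20:31664452-31723989. It had 30.9 in siMYCN with let-7a and 25.9 in siMYCN with miRCon, against 27.1 in siCon with let-7a and 27.6 in siCon with miRCon. The siMYCN libraries lay on either side of the siCon libraries. Its siMYCN effect was 0.044 ± 0.13 (SE, n = 4 libraries; adjusted p = 0.858 by limma), and -0.016 after rescaling. The transcripts of the short, pro-apoptotic splice form share this gene-level value, and the antisense RNA ABALON overlaps its exons, which cannot be resolved here since the use of strand is not given in the sources used here.

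Summed over these 3 genes, the anti-apoptotic transcripts reached 209.8 in siMYCN with let-7a and 178 in siMYCN with miRCon, against 140.5 in siCon with let-7a and 137 in siCon with miRCon. MCL1 supplied 77.6% and 77.3% of that sum in the siMYCN libraries and 70.7% and 67.8% in the siCon libraries. Without MCL1 the remaining sum of BCL2 and BCL2L1 stayed between 40.4 and 46.9 in the 4 libraries. The difference in the sum thus lay in MCL1 (stacked plot of summed levels).

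**Figure D2:**
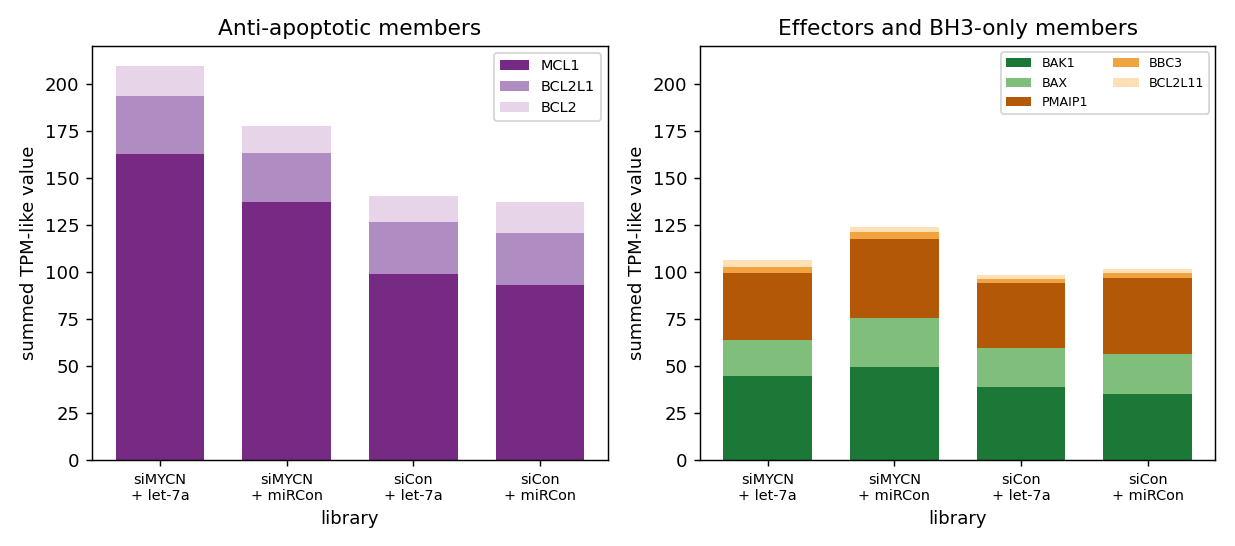
TPM-like values stacked by gene in each of the 4 libraries (1 library per bar, no error bars), with the anti-apoptotic genes on the left and the effectors and BH3-only genes on the right on the same axis. The left bars stand at 209.8 and 178 with siMYCN and 140.5 and 137 with siCon, and the MCL1 block accounts for the difference.

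The effectors showed no call with siMYCN. BAK1, which sits in the outer mitochondrial membrane and is known to be held by MCL1 and BCL-XL, had 44.7 in siMYCN with let-7a and 49.5 in siMYCN with miRCon, against 39.1 in siCon with let-7a and 35.5 in siCon with miRCon. Both siMYCN libraries were above both siCon libraries. Its effect was 0.33 ± 0.12 (SE, n = 4 libraries; adjusted p = 0.157 by limma), which was under 0.05 only before adjustment, as were 26.4% of all tested genes. The pairs gave 0.19 with let-7a and 0.47 with miRCon. BAK1 lies on the minus strand of chr6:33572547-33580293, overlaps exons of GGNBP1 on the other strand and has the named pseudogenes BAK1P1 and BAK1P2, whose reads could be divided with it.

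BAX, the cytosolic effector, had 19.5 in siMYCN with let-7a and 26.2 in siMYCN with miRCon, against 20.7 in siCon with let-7a and 21.2 in siCon with miRCon. The siMYCN with miRCon library was the highest and siMYCN with let-7a the lowest, so the siRNA groups overlapped. The siMYCN effect was 0.11 ± 0.15 (SE, n = 4 libraries; adjusted p = 0.685 by limma). BAX is on the plus strand of chr19:48954815-48961798.

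BAX is shown with its promoter because MYC proteins with their partner MAX bind the E-box word CACGTG, and this promoter holds it 4 times. In RefSeq's promoter table (GRCh38.p14, 250 bases before to 50 after each start) the word, which reads the same on both strands, was in 7.26% of 35116 promoters. Of the 9 genes, all but MCL1 had at least one promoter there (8 genes, 10 promoters in all), so MCL1 was not searched. The word was held by 2 genes: BAX at -138, -93, -45 and -14 bases from its start, and BBC3 at -232. The BAX promoter, chr19:48954625-48954924 on the plus strand, follows with the words in capitals.
BAX promoter: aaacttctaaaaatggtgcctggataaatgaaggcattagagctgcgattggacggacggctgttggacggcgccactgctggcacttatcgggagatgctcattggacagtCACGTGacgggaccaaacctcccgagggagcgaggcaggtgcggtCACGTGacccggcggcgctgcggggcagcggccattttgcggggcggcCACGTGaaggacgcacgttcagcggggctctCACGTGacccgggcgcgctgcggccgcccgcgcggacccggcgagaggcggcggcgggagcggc
BAX, with 4 of these words, had a siMYCN difference of -0.080 with let-7a and 0.29 with miRCon. A match is a description of letters in a window and was not read as binding.

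The ratio of BAX to BCL2, a common description of the balance between death and survival, was 1.22 in siMYCN with let-7a and 1.81 in siMYCN with miRCon, against 1.48 in siCon with let-7a and 1.28 in siCon with miRCon. The ratio of the 2 effectors to the 3 anti-apoptotic genes was 0.306 and 0.426 in the same siMYCN libraries, against 0.425 and 0.412 in the siCon libraries. The library with both treatments was lowest in both ratios. Each value rests on 1 library.

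The BH3-only genes differed widely in level, and only PMAIP1 was tested. PMAIP1, which encodes NOXA, a protein that binds MCL1 and promotes its breakdown, had 35.5 in siMYCN with let-7a and 41.9 in siMYCN with miRCon, against 34.7 in siCon with let-7a and 40.3 in siCon with miRCon. Both let-7a libraries lay below both miRCon libraries, and the siRNA groups overlapped. Its siMYCN effect was 0.042 ± 0.10 (SE, n = 4 libraries; adjusted p = 0.831 by limma), and -0.018 after rescaling. The ratio of MCL1 to PMAIP1 was 4.59 and 3.28 in siMYCN with let-7a and with miRCon, against 2.86 and 2.31 in siCon with let-7a and with miRCon. PMAIP1 lies on the plus strand of chr18:59899948-59904306.

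BBC3, which encodes PUMA, a broad binder of anti-apoptotic proteins, was scarce. It had 3.30 in siMYCN with let-7a and 3.62 in siMYCN with miRCon, against 1.93 in siCon with let-7a and 2.56 in siCon with miRCon. Both siMYCN libraries were above both siCon libraries, with log2 fold changes of 0.55 with let-7a and 0.38 with miRCon. BCL2L11, which encodes BIM, had 3.44 in siMYCN with let-7a and 3.07 in siMYCN with miRCon, against 2.05 in siCon with let-7a and 2.15 in siCon with miRCon. Its siMYCN log2 fold changes were 0.54 with let-7a and 0.37 with miRCon, and its siRNA groups did not overlap either. Both genes were under the level filter and have no test. Among the 9324 genes that were tested, 4031 were above 0 in both siMYCN pairs. That rule is looser than groups without overlap, and it was counted only over genes that passed the filter, unlike BBC3 and BCL2L11. The share of all genes whose siRNA groups do not overlap was not counted, so little is read from it here. Between 1 and 5 TPM-like the departure from additivity was wide, with a median of 0.41 log2 units over 2389 genes and a value of 1.19 at percentile 90. Exons of MIR4435-2HG overlap BCL2L11 on the other strand, and those of MIR3190 and MIR3191 overlap BBC3. BBC3 is on chr19:47220822-47232766 (minus strand) and BCL2L11 on chr2:111119378-111168447 (plus strand).

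CASP9, the initiator caspase of the apoptosome, had 0.99 in siMYCN with let-7a and 0.31 in siMYCN with miRCon, against 0.38 in siCon with let-7a and 0.55 in siCon with miRCon. The siMYCN libraries held both the highest and the lowest value. At such levels (0.5 to 1 on average, 831 genes) the departure from additivity reached 1.16 at percentile 90, against 0.77 for CASP9, so no direction was read from it. CASP9 lies on the minus strand of chr1:15490832-15526534 and overlaps exons of CELA2B on the other strand.

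By mean level the order was MCL1 (123), BAK1 (42.2), PMAIP1 (38.1), BCL2L1 (27.9), BAX (21.9), BCL2 (15.3), BBC3 (2.85), BCL2L11 (2.68) and CASP9 (0.56). The ranges over the 4 libraries overlapped between BAK1 and PMAIP1, between BCL2L1 and BAX, and between BBC3 and BCL2L11. The other neighbours in this order did not overlap. PMAIP1 supplied between 84.0% and 89.7% of the summed BH3-only transcripts.

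**Figure D3:**
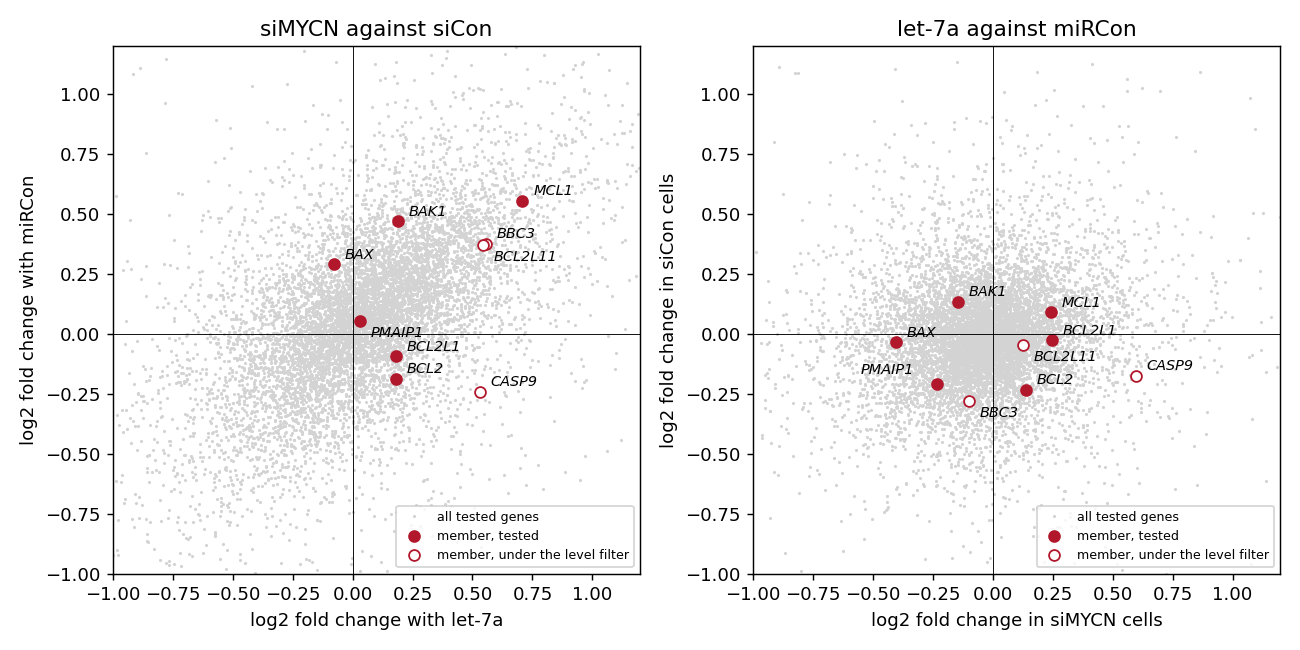
Log2 fold change of each gene in one pair of libraries against the other, for siMYCN against siCon (left: with let-7a on the x axis, with miRCon on the y axis) and for let-7a against miRCon (right: in siMYCN cells on the x axis, in siCon cells on the y axis); filled points passed the level filter, open points did not, and grey points are all tested genes that fall within the axes. MCL1 lies at 0.71 and 0.56 on the left, and on the right only MCL1 among the 9 is above 0 in both pairs (0.24 and 0.091).

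With the let-7a mimic none of the 6 tested genes was called. The count was 0 by limma after adjustment and 0 at an unadjusted p under 0.05, beside 0 and 697 (7.48%) of all 9324 tested genes, so that the share called after adjustment was 0.0%. The median effect of the 6 was -0.027, beside -0.031 over all tested genes. A second count, without a test, took genes that differed by 1.5-fold or more in one direction in each pair. It held 0 of the 6 for let-7a, beside 0.461% of tested genes, and 0 of the 6 for siMYCN, beside 4.46%, because the miRCon pair of MCL1 fell short. At the smaller fold size among the alternatives, 1 of the 6 passed for siMYCN, MCL1, beside 16.5% of tested genes.

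PMAIP1, BAX and BBC3 were below 0 in both let-7a pairs and MCL1 was above 0 in both, without a call. Of all 9324 tested genes, 3122 were below 0 in both pairs and 2104 above, beside 2 and 1 of the 6 tested here. PMAIP1 had -0.23 in siMYCN and -0.21 in siCon cells, or -0.22 ± 0.10 over both (SE, n = 4 libraries; adjusted p = 0.675 by limma). MCL1 had 0.24 in siMYCN and 0.091 in siCon cells, or 0.17 ± 0.081 (SE, n = 4 libraries; adjusted p = 0.685 by limma). BAX had -0.41 in siMYCN and -0.033 in siCon cells, or -0.22 ± 0.15 (SE, n = 4 libraries; adjusted p = 0.739 by limma), and BBC3 had -0.10 and -0.28 with no test. BCL2, BCL2L1, BAK1, BCL2L11 and CASP9 changed sign between the pairs.

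The 3' UTRs were searched for let-7 seed matches. The mature let-7a, which RefSeq (GRCh38.p14) places at 3 loci on chromosomes 9, 11 and 22, is shown with its seed, bases 2 to 8, in capitals, followed by the sites found in the longest 3' UTR of GENCODE release 29 (GRCh38), with the matched word in capitals. Each site line is 30 bases of transcript, 5' to 3', ending at the match. The 8mer word is CTACCTCA, the 7mer-m8 is CTACCTC and the 7mer-A1 is TACCTCA, searched on the transcript strand only, and a 7mer inside an 8mer was not counted again. The first 8mer of LIN28B is shown for comparison.
hsa-let-7a-5p: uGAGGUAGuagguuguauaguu
BCL2L1 8mer: tatgggagccccagggtcttccCTACCTCA
PMAIP1 7mer-A1: tgtagtcactttagatggaaaatTACCTCA
LIN28B 8mer: ttcctttacccggttgcaaagtCTACCTCA
The BCL2L1 site is at chr20:31664997-31665026 on the minus strand, the PMAIP1 site at chr18:59904100-59904129 on the plus strand and the LIN28B site at chr6:105078805-105078834 on the plus strand.

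Of the 9 genes, 2 had a match, BCL2L1 and PMAIP1, where 18.8% of the 8914 tested genes with a 3' UTR had one and 4.32% had an 8mer. The BCL2L1 3' UTR is 1497 bases long and that of PMAIP1 1553, beside a median of 1493 over those genes. BCL2 has a 3' UTR of 5279 bases and MCL1 one of 2824 bases, and neither held a match (0 in each). The PMAIP1 match lies in the 3' UTR of a transcript encoding 54 residues. It is absent from the 3' UTR of the transcript with the longest coding sequence, which encodes 136 residues. Both transcripts were picked by length alone, and which of them the cells made was not examined. BCL2L1, with its 8mer, had let-7a log2 fold changes of 0.25 in siMYCN and -0.026 in siCon cells, or 0.11 ± 0.13 (SE, n = 4 libraries; adjusted p = 0.847 by limma). Its effect over both pairs was thus above 0 and not called. LIN28B has 5 matches in its longest 3' UTR, 2 of them 8mers.

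The let-7a difference between siMYCN and siCon cells was largest for CASP9 (0.77), BAX (-0.37) and BCL2 (0.37), followed by BAK1 (-0.28), BCL2L1 (0.27), BBC3 (0.18), BCL2L11 (0.17), MCL1 (0.15) and PMAIP1 (-0.023). These differences use up the only residual degree of freedom and have no test. For genes at 20 to 100 TPM-like the median departure was 0.17 and percentile 90 was 0.47, at 5 to 20 it was 0.27 and 0.77, and at 100 or more 0.11 and 0.31. The differences of all 9 genes lay below percentile 90 for their level. Against cells with neither treatment, siMYCN with let-7a had log2 fold changes of 0.80 for MCL1, 0.32 for BAK1, 0.15 for BCL2L1, -0.051 for BCL2, -0.11 for BAX and -0.18 for PMAIP1, each from 1 pair of libraries with no test.

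The other BCL2 relatives were followed as fixed lists. BCL2L2, which encodes the anti-apoptotic BCL-W, had 43.7 in siMYCN with let-7a and 43.1 in siMYCN with miRCon, against 32.8 in siCon with let-7a and 30.6 in siCon with miRCon. Its libraries did not overlap between siRNAs, and its effect was 0.44 ± 0.11 (SE, n = 4 libraries; adjusted p = 0.0779 by limma), which missed the threshold. The other anti-apoptotic genes, BCL2A1 and BCL2L10, were at 0.40 or less in every library. Of 5 other BH3-only genes, 2 were tested and 0 called. BAD had 38.5 in siMYCN with let-7a and 28.0 in siMYCN with miRCon, against 28.4 in siCon with let-7a and 28.7 in siCon with miRCon. BID, named after its values were seen, had 6.55 in siMYCN with let-7a and 11.4 in siMYCN with miRCon, against 12.0 in siCon with let-7a and 4.58 in siCon with miRCon, a departure from additivity of -1.93 log2 units. Of the 5 other BCL2-like genes only BCL2L13 was tested, at -0.092 ± 0.19 (SE, n = 4 libraries; adjusted p = 0.799 by limma). BCL2L12, below the filter, had 0 in siMYCN with let-7a and 0.40 in siMYCN with miRCon, against 1.46 in siCon with let-7a and 1.26 in siCon with miRCon.

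Of the 10 caspases followed, CASP9 included, 1 passed the level filter and 0 were called for either treatment. CASP2, an initiator also linked to DNA damage, was at 47.9 in siMYCN with let-7a and 47.1 in siMYCN with miRCon, against 43.4 in siCon with let-7a and 43.8 in siCon with miRCon. The executioner CASP6 was scarce, with 1.11 in siMYCN with let-7a and 1.90 in siMYCN with miRCon, against 0.95 in siCon with let-7a and 1.81 in siCon with miRCon. CASP8, the initiator of the death receptor pathway, which is silenced in many neuroblastomas, was below the filter, with 5.16 in siMYCN with let-7a and 5.11 in siMYCN with miRCon, against 1.23 in siCon with let-7a and 2.58 in siCon with miRCon. Its siMYCN log2 fold changes were 1.47 with let-7a and 0.77 with miRCon. CASP1 and CASP5 were listed at 0 in every library, and CASP4, the most abundant of the inflammatory and other caspases, stayed at 2.33 or less.

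**Figure D4:**
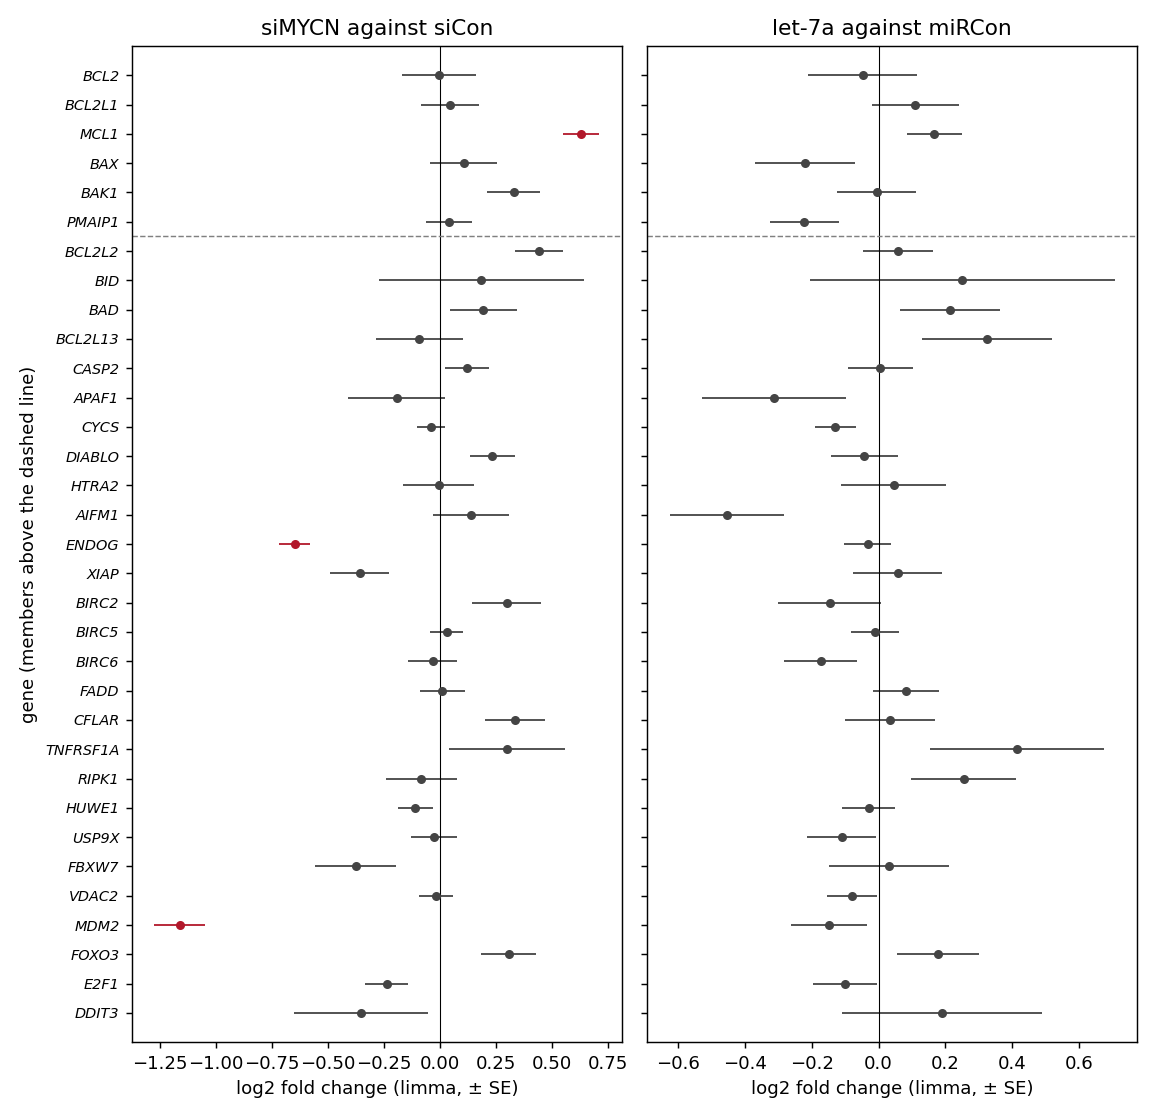
Log2 fold change over both pairs of libraries (points) with the SE of the additive limma fit (bars) for the 33 cell death genes that passed the level filter, for siMYCN against siCon (left) and let-7a against miRCon (right); red marks an adjusted p under 0.05. With siMYCN, MCL1 is higher (0.63) and ENDOG (-0.65) and MDM2 (-1.16) are lower, and no gene is red for let-7a.

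Of the 49 other cell death genes, 27 were tested. With siMYCN limma called 0 higher and 2 lower, beside 2.07% and 1.36% of all tested genes. With let-7a it called 0, as it did over all tested genes. The median siMYCN effect of the 27 was -0.017, beside 0.056 over all tested genes. Both called genes were past 1.5-fold in each pair. Their calls too were lost with no level filter and without limma's mean-variance trend, where limma called 0 of all genes. At an unadjusted p under 0.05 in the limma fit, 4 of the 27 passed for siMYCN and 1 for let-7a, beside 26.4% and 7.48% of all tested genes. ENDOG, a mitochondrial nuclease, had 125 in siMYCN with let-7a and 127 in siMYCN with miRCon, against 195 in siCon with let-7a and 201 in siCon with miRCon, an effect of -0.65 ± 0.069 (SE, n = 4 libraries; adjusted p = 0.0286 by limma). MDM2, a ubiquitin ligase, had 18.7 and 21.6 in the siMYCN libraries with let-7a and with miRCon, against 44.5 and 47.8 in the siCon libraries with let-7a and with miRCon.

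Among the apoptosome and released mitochondrial proteins, 6 were tested and ENDOG alone was called. CYCS, cytochrome c, was the most abundant, with 724 in siMYCN with let-7a and 839.9 in siMYCN with miRCon, against 789 in siCon with let-7a and 814 in siCon with miRCon, and a siMYCN effect of -0.039 ± 0.062 (SE, n = 4 libraries; adjusted p = 0.722 by limma). Of 7 inhibitors of apoptosis 4 were tested and 0 called. BIRC5, survivin, ranged from 145 to 152 over the libraries. Of 6 death receptor pathway genes 4 were tested and 0 called, with the adaptor FADD between 44.6 and 48.8. All 8 regulators were tested and MDM2 alone was called, while VDAC2, a channel known to bind BAK1, ranged from 167 to 186.

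Matches to a let-7 word were found in 7 of these 49 genes, and 2 of them held an 8mer, AIFM1 and FAS, named for their sequence. Of the 8914 tested genes with a 3' UTR, 18.8% had a match and 4.32% an 8mer, so the counts do not set these 49 apart. The AIFM1 8mer is absent from the 3' UTR of the transcript with the longest coding sequence. That transcript encodes 613 residues, whereas the one whose 3' UTR holds the 8mer encodes 324. Coding sequence was not searched. AIFM1, a mitochondrial flavoprotein, had let-7a log2 fold changes of -0.51 in siMYCN and -0.40 in siCon cells and was not called (adjusted p = 0.663 by limma). FAS, a death receptor, was below the filter and had -0.12 and 0.15 in the same pairs. Of the others with a match, APAF1, the apoptosome scaffold, had -0.59 in siMYCN and -0.040 in siCon cells, and DIABLO, which binds inhibitors of apoptosis, had -0.018 and -0.067. BCL2L2 had 0.018 and 0.098 and CFLAR, an inhibitor of CASP8 activation, 0.19 and -0.13, while CASP14 was close to 0 in level. Of those that were tested, none was called, and the directions were mixed.

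The profiles nearest to MCL1 and BAK1, the 2 with the widest ranges among the 6 tested of the 9 genes, were sought among the genes with a mean of at least 20, by Euclidean distance between centred log2 profiles over the 4 libraries. The second and the third nearest to MCL1 were NFKBIA (distance 0.045) and CHMP1B (0.068). Nearest to BAK1 were GTF2F2 (0.016), EMP2 (0.034) and ZNF282 (0.034). With 4 libraries and 5671 candidates, some profiles lie close to any gene.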

How the data were processed

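RNA from 4 libraries, 1 per group as named in the labels, was measured by polyA sequencing. The authors deposited natural log values per gene (19837 rows). Back-transformed as exp(x) - 1 they summed to between 855811 and 862049 per library, so they are called TPM-like; scaling per transcript length is assumed. Per the submitters' processing notes, GRCh38, HISAT 0.1.6 and Salmon 0.3.2 were used, in roles not stated. Annotation, strand setting and log step: not given in the sources used here. Such values keep no depth, so counting error is unknown. After 11 vector rows were set apart, genes with a mean of at least 5 were fitted by limma-trend (limma 3.58.1, R 4.3.3) on log2(value + 1), the model being the sum of an siRNA and a mimic term, with 1 residual and 4.296 prior degrees of freedom, and Benjamini-Hochberg adjustment over 9324 genes. The script was tested on simulated data. Python 3.11.15 with pandas 2.3.3 served the rest.

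The 9 genes, the lists and the tests were chosen with earlier results of these data known. Named were the 9 genes, list genes that were called or past 1.5-fold, each list's most abundant gene, MYCN, LIN28B and the nearest profiles. Outside that rule, BID, BCL2A1, BCL2L10, CASP1 and CASP5, and for their let-7 matches AIFM1, FAS, APAF1, DIABLO, CFLAR and CASP14, were named after their values were seen. A few of them are not reported here. The settings varied were the pseudocount (0.1 or 5), the filter (none, or a mean of 20 and above), the scaling (median ratios), the variance model (no trend, or robust), the fold size (a smaller one and 2) and the transcript giving the 3' UTR.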

Additional observations from a re-analysis of the deposited data

Results flagged for a closer look

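With 1 library per group, a gene was noted when its effect had opposite signs in the pairs of libraries that share none, and these differences were not tested. The let-7a effect in siMYCN minus that in siCon cells, on the log2(value + 1) scale, was 0.37 for BCL2, 0.27 for BCL2L1, -0.28 for BAK1, 0.17 for BCL2L11 and 0.77 for CASP9. The siMYCN effect had opposite signs with let-7a and with miRCon for BCL2 (0.37), BCL2L1 (0.27), BAX (-0.37) and CASP9 (0.77), which is the same difference read the other way. Of all tested genes, 43.95% had let-7a effects of opposite sign, against 3 of the 6 tested here.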

How the results depend on the processing

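The number of tested members called with siMYCN was 1 in the main setting and 0 with no filter and with no trend, settings in which limma called 0 of all genes (1761 higher and 1032 lower, and 1434 higher and 787 lower, at an unadjusted p under 0.05). MCL1 stayed between 0.57 and 0.64 over 7 alternatives, with an adjusted p from 0.0172 to 0.193 by limma, past the threshold in 5. At the smaller fold size the count past it in both pairs for siMYCN was 1, MCL1. Rescaling turned the sign of uncalled effects: BCL2L1 and PMAIP1 with siMYCN to -0.016 and -0.018, and BAK1 with let-7a to 0.028. In all, 77 of 82 member effects kept direction and call. The filter and variance settings leave the fitted effect unchanged, so direction could change only with the pseudocount or the rescaling. All but the MCL1 effect with siMYCN were uncalled in every setting, so the count says little about robustness. Over all genes, limma called 193 higher and 127 lower with siMYCN, 343 and 408 after rescaling, and 310 and 196 among genes averaging 20 or more. The let-7a count was 0 in every setting run, for the members and for all genes alike. The departures of BBC3, BCL2L11 and CASP9 from additivity depended on the pseudocount, CASP9 running from 0.22 (pseudocount 5) to 1.85 (pseudocount 0.1). No paired analysis was possible because each group holds 1 library and the labels give no replicate numbers to block on; the additive fit already compares siRNAs within each mimic and mimics within each siRNA. Depth is unknown, which limits most the genes under 5 TPM-like.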
